A study of Homo sapiens with 10 samples.

Results

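Translation initiation and elongation factors are the proteins that load ribosomes onto mRNA, find the start codon and move the ribosome along the coding sequence. The members described here are the genes of the count table whose symbol begins with EIF1 to EIF6 or with EEF1 or EEF2 and holds no hyphen, apart from EIF4A3, which belongs to the exon junction complex. That rule used names only, though it was set with earlier results of these data known. It gave 64 of the 25370 genes in the table. Of these, 56 had enough reads to be tested among 16490 tested genes, and 8 did not.

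The libraries came from PEO1, an established epithelial line of a high grade serous ovarian carcinoma that lacks working BRCA2, a protein of homologous recombination repair. The groups were 4 veliparib-resistant clones of PEO1, named ABTr1, ABTr2, ABTr3 and ABTr4, and the parental PEO1 line. Veliparib inhibits PARP1, an enzyme of DNA break repair. The clones had been under 40 µM of the drug for 6 months and were taken off it 4 to 5 days before RNA was collected, and no veliparib treatment is given for the parental cells. Each group had 2 libraries of polyadenylated RNA, so a clone is 1 resistant isolate measured in 2 libraries, and differences between clones and parental cells include whatever set each isolate apart.

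As background, translation begins when eIF2 carries the initiator tRNA to the small ribosomal subunit, with eIF1, eIF1A and the large eIF3 complex holding the subunit open for scanning. The eIF4F complex, built of the cap-binding eIF4E, the scaffold eIF4G and the helicase eIF4A, brings in the mRNA, and 4E-binding proteins block eIF4E when mTORC1 is inactive. During elongation eEF1A delivers aminoacyl-tRNA, the eEF1B subunits recharge eEF1A with GTP, and eEF2 moves the ribosome by a codon. Several of these mRNAs, like those of ribosomal proteins, begin with a cytosine and a run of pyrimidines, the 5′ TOP element that ties their translation to mTORC1.

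The libraries held 20640602 to 55488566 reads counted in genes, and the members took 2.15 to 3.54% of the reads in the clone libraries and 2.91 and 4.03% in the parental ones. CPM below, the counts per 1000000 reads, are scaled by TMM factors, which were 0.992 to 1.08 in the clone libraries and 0.851 and 0.904 in the parental ones. Markers of epithelium summed to 2697 to 3534 CPM in the clone libraries and to 9386 and 14500 CPM in the parental libraries. The keratin gene KRT8 had 789 to 1396 CPM in the clone libraries and 2630 and 3262 CPM in PEO1, KRT7 had 583 to 1226 CPM in the clone libraries and 2782 and 4280 CPM in PEO1, and CDH1, the E-cadherin gene, had 0.0430 to 9.56 CPM in the clone libraries and 147 and 358 CPM in PEO1. Of the serous ovarian markers, SOX17 had no reads in any library, and the others summed to 97.5 to 201 CPM in the clone libraries against 162 and 190 CPM in the parental ones, most of it PAX8. MUC16 had 0 to 1.16 CPM in the clone libraries and 20.7 and 66.4 CPM in PEO1, and WT1 had 0.145 to 3.21 CPM in the clone libraries and 13.9 and 2.63 CPM in PEO1. Of the fibroblast markers, DCN, LUM and COL3A1 had no reads in any library, and the list, led by COL1A1, summed to 1.84 to 15.7 CPM in the clone libraries and to 8.16 and 8.55 CPM in PEO1. The sums over the leukocyte, endothelial and mesothelial markers were 3.23 to 18.7, 2.01 to 16.3 and 40.8 to 185 CPM in the clone libraries and 9.65 to 19.6, 15.5 to 62.3 and 87.7 to 222 CPM in PEO1. The part of these markers in the results was not tested. Libraries that share a replicate number lay off their group means in the same direction, so results from a fit that blocks on that number are given wherever they change a call or a count.

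Most members were lower on average in the resistant clones. A member passed when edgeR's quasi-likelihood test gave an adjusted p under 0.05 over all tested genes. In the mean of the 4 clones against PEO1, 2 of 56 members passed as higher, EEF1A2 and EIF5A2, where 7.17% of all tested genes did. As lower, 6 passed, EEF1B2, EEF1G, EIF4EBP1, EIF3K, EIF2D and EIF3M, which is 10.7% of the members where 8.79% of all genes did. With the replicate block 28 members passed, 3 higher and 25 lower, and 44.6% of the members were then called lower where 18.2% of all genes were, while 16.3% of all genes were called higher.

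The direction was more uniform than the calls. The log2 fold change was below 0 for 47 of 56 members, or 83.9%, beside 48.7% of all tested genes, and its median over the members was -0.38 beside 0.02 over all genes. In every one of the 4 clones 36 members lay below PEO1, 64.3% of the members beside 31.8% of all genes. The clones share the same 2 parental libraries, so these 4 directions are not independent of each other. With PEO1 replicate 1 left out, 39 members were below 0 and 18 above, with a median of -0.30, and with PEO1 replicate 2 left out only EEF1A2 passed. With either library of ABTr1 or either of ABTr3 left out, 5 members passed. In bulk RNA a smaller share of cells with an mRNA and less of it per cell cannot be told apart.

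**Figure D1:**
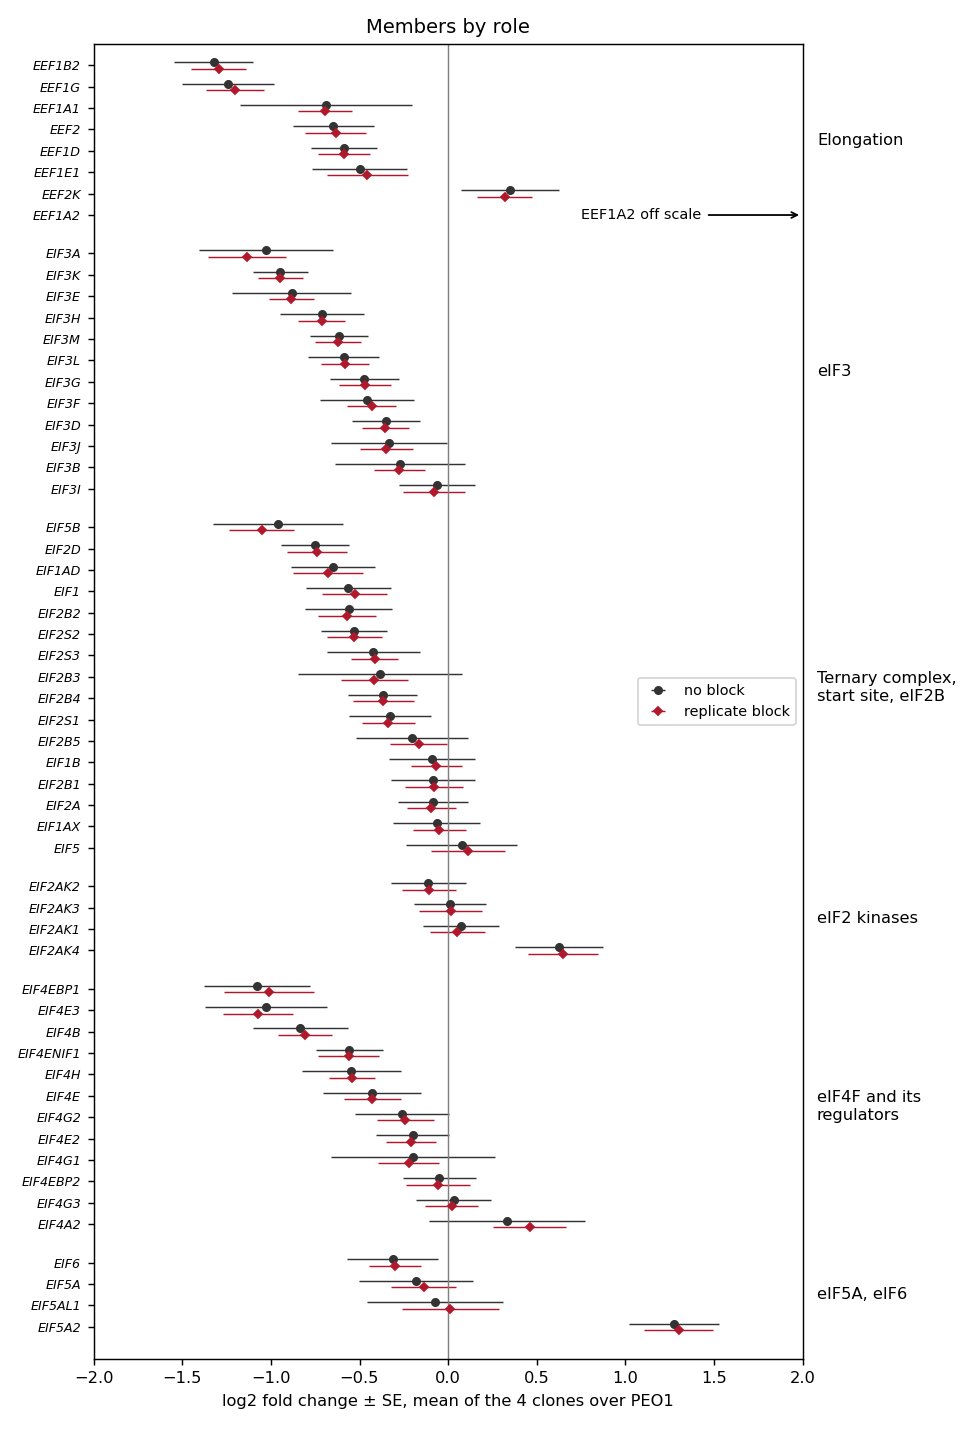
Log2 fold change ± SE of the 56 tested members, mean of the 4 clones over PEO1, grouped by role, from the fit without the block (black circles) and with the replicate block (red diamonds). All 12 tested eIF3 subunits lie left of 0, and EEF1A2, at 8.73, lies off the scale to the right.

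EEF1A2 encodes the eEF1A isoform that adult mammals normally confine to neurons, heart and skeletal muscle, and it had few reads in PEO1 and more in every clone library. Its exons lie on hg19 at chr20:62119365-62130668. Reads of EEF1A2 numbered 5516 and 4600 in ABTr1, 1443 and 1569 in ABTr2, 3724 and 6585 in ABTr3, 423 and 1405 in ABTr4, and 7 and 4 in PEO1. Scaled to CPM, ABTr1 had 156 and 141.5, ABTr2 26.2 and 75.8, ABTr3 71.3 and 194.5, ABTr4 9.10 and 43.3, and PEO1 0.174 and 0.155. The lowest clone library was far above the higher parental one, and within ABTr2, ABTr3 and ABTr4 replicate 2 was well above replicate 1.

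EEF1A2 averaged 89.7 ± 60.2 CPM over the clones (SD, n = 4) and 0.164 ± 0.0133 CPM in PEO1 (SD, n = 2). Here and below, an SD over clones is that of 4 clone means, each of 2 libraries. An SD of PEO1 is that of 2 single libraries. Differences by replicate number are averaged within the clone means but not in PEO1, so the 2 spreads cannot be compared. The log2 fold change was 8.73 with an SE of 1.08 and an edgeR adjusted p of 0.00149, and the size of the fold rests on 11 parental reads. Each clone passed by itself, with log2 fold changes of 9.78 in ABTr1, 8.24 in ABTr2, 9.62 in ABTr3 and 7.28 in ABTr4. It was the 1 member that passed under all 16 other settings and omissions run on the mean comparison, and its largest adjusted p among them was 0.0237. EEF1A2 was already known from earlier results of these data, so these p-values do not come from a choice made blind to the values.

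Per kilobase, EEF1A2 stayed a minor product beside EEF1A1, the ubiquitous isoform. Its share of the EEF1A1 and EEF1A2 reads per kilobase was 3.93 and 2.00% in ABTr1, 0.574 and 0.641% in ABTr2, 1.93 and 2.34% in ABTr3, 0.170 and 0.438% in ABTr4, and 0.00248 and 0.00107% in PEO1. The mean share over clones was 1.503 ± 1.26% (SD, n = 4). The coding sequences of both genes were 78.1% identical over 1386 aligned bases in GENCODE, with no identical run longer than 20 bases.

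Among the neighbours of EEF1A2, 3 of the 5 genes on its right were higher in the clones. On its left, CHRNA4 and LOC100130587 had no reads in any library, and COL20A1, a collagen gene, had 20 reads over the clone libraries and 4 in PEO1. On its right PPDPF, a pancreatic differentiation factor gene, averaged 477 CPM in the clones against 191 CPM in PEO1, a log2 fold change of 1.29 (SE 0.22, adjusted p = 0.00562 by edgeR). HELZ2, a helicase and nuclear receptor coactivator gene, averaged 217 CPM in the clones against 68.8 CPM in PEO1, a log2 fold change of 1.63 (SE 0.22, adjusted p = 0.00215 by edgeR). SRMS, a kinase gene at 1.39 CPM in the clones and 0.360 CPM in PEO1, also passed, with an edgeR adjusted p of 0.0386. PTK6 did not, with 33.4 CPM in the clones, 19.3 CPM in PEO1 and an edgeR adjusted p of 0.185, which became 0.0376 with the replicate block, and C20orf195 did not in either fit.

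Markers of the tissues that normally use EEF1A2 were set beside it. The 5 skeletal muscle markers summed to 0.200 to 1.30 CPM in the clone libraries and to 0.0992 and 0.348 CPM in PEO1, and MYOD1 had no reads in any library. The 5 neuronal markers summed to 340 to 516 CPM in the clone libraries and to 186 and 302 CPM in PEO1, most of it TUBB3, at 287 to 478 CPM in the clone libraries and 272 and 144 CPM in PEO1. MAP2 had 6.18 to 33.1 CPM in the clone libraries and 18.7 and 34.0 CPM in PEO1, and SYT1 had 12.4 to 28.4 CPM in the clone libraries and 10.9 and 8.24 CPM in PEO1. SNAP25 and RBFOX3 were below 1 CPM in every library. The part of these markers in the EEF1A2 result was not tested.

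**Figure D2:**
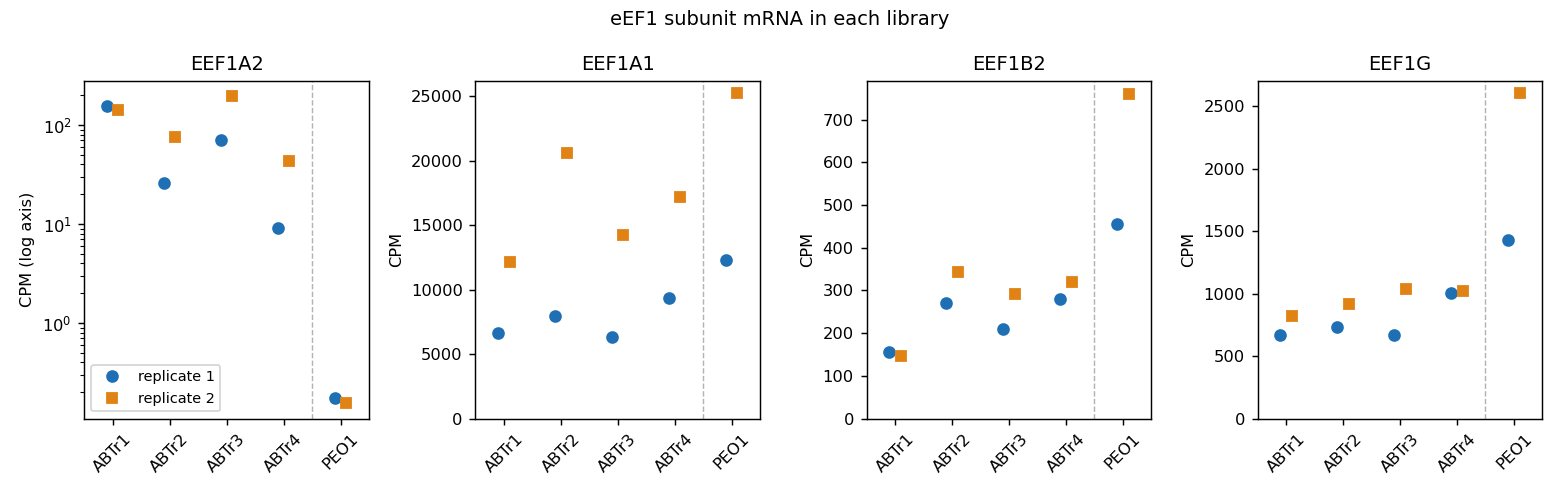
CPM of 4 eEF1 subunit genes in every library (EEF1A2 on a log axis, the others on linear axes), clones left of the dashed line and PEO1 right of it, with replicate 1 as circles and replicate 2 as squares. EEF1A2 is below 1 CPM in both PEO1 libraries and between 9.10 and 194.5 CPM in the clones, while all clone libraries of EEF1B2 and EEF1G lie below both PEO1 libraries.

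The other eEF1 subunits were lower on average in the clones. EEF1A1 was the most abundant member per kilobase in both groups, with 3361 ± 663 CPM per kilobase in the clones (SD, n = 4) and 5338 ± 2609 CPM per kilobase in PEO1 (SD, n = 2). It had 6670 and 12170 CPM in ABTr1, 7953 and 20580 in ABTr2, 6331 and 14200 in ABTr3, 9336 and 17200 in ABTr4, and 12270 and 25230 in PEO1. Replicate 2 was higher in all 5 groups, and each clone library lay below the parental library of its own number although the groups overlapped. The log2 fold change of EEF1A1 was -0.69 with an SE of 0.49 (adjusted p = 0.378 by edgeR), and with the replicate block it was -0.69 with an SE of 0.15 (adjusted p = 0.00664 by edgeR).

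EEF1B2 and EEF1G encode eEF1Bα, which exchanges the nucleotide on eEF1A, and the eEF1Bγ scaffold that holds it. EEF1B2 had 156 and 148 CPM in ABTr1, 271 and 343 in ABTr2, 209 and 291 in ABTr3, 279 and 319 in ABTr4, and 456 and 760 in PEO1. All 8 clone libraries of EEF1B2 were below both parental ones, its log2 fold change was -1.32 (SE 0.23, adjusted p = 0.00611 by edgeR), and ABTr1 was the lowest clone at -2.002. EEF1G had 672 and 822 CPM in ABTr1, 731 and 918 in ABTr2, 674 and 1038 in ABTr3, 1005 and 1019 in ABTr4, and 1433 and 2607 in PEO1. Its groups did not overlap either, and its log2 fold change was -1.24 (SE 0.26, adjusted p = 0.015 by edgeR). Without PEO1 replicate 2 the edgeR adjusted p was 0.0887 for EEF1B2 at a log2 fold change of -0.91, and 0.198 for EEF1G at -0.75.

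EEF1D, the second exchange subunit, averaged 312 ± 44.2 CPM in the clones (SD, n = 4) and 464 ± 5.75 CPM in PEO1 (SD, n = 2), a log2 fold change of -0.59 (SE 0.18, adjusted p = 0.0632 by edgeR, and 0.0115 with the replicate block). EEF2, the translocase, had 1089 and 1619 CPM in ABTr1, 1775 and 1591 in ABTr2, 1588 and 1594 in ABTr3, 1748 and 1721 in ABTr4, and 2052 and 2910 in PEO1. All clone libraries of EEF2 were below both parental ones. Its log2 fold change was -0.65 (SE 0.23, adjusted p = 0.0905 by edgeR, and 0.0169 with the replicate block). EEF2K, the kinase that phosphorylates and inactivates eEF2, averaged 67.1 ± 17.3 CPM in the clones (SD, n = 4) and 51.6 ± 4.61 CPM in PEO1 (SD, n = 2) with an edgeR adjusted p of 0.437. EEF1E1, a scaffold protein of the tRNA synthetase complex, averaged 10.2 ± 2.77 CPM in the clones (SD, n = 4) and 14.1 ± 6.90 CPM in PEO1 (SD, n = 2) and did not pass in either fit. Of the 8 elongation members, 1 was called higher and 2 lower, or 1 higher and 5 lower with the replicate block, with a median log2 fold change of -0.62. Over all tested genes 7.17% were called higher and 8.79% lower, or 16.3 and 18.2% with the block.

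In the mean of the 4 clones, all 12 tested eIF3 subunits had a log2 fold change below 0. So did 83.9% of the members and 48.7% of all tested genes. The subunits ran from -1.03 for EIF3A to -0.06 for EIF3I, with a median of -0.53. EIF3I lay above PEO1 in ABTr3 and ABTr4, at 0.03 and 0.18. EIF3K and EIF3M passed without the block, and with the replicate block 8 of 12 did, adding EIF3A, EIF3E, EIF3F, EIF3G, EIF3H and EIF3L. Of all tested genes 8.79% were called lower, or 18.2% with the block. EIF3C and EIF3CL, near-identical copies of 1 core subunit, were listed with 2 reads and with none over all libraries and could not be described.

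EIF3K, a small subunit of the octamer that forms the body of eIF3, had 63.0 and 63.1 CPM in ABTr1, 80.2 and 83.6 in ABTr2, 81.2 and 95.2 in ABTr3, 74.7 and 87.0 in ABTr4, and 144.5 and 155.5 in PEO1. Its libraries agreed closely within each group and the groups stood apart, at a log2 fold change of -0.95 (SE 0.15, adjusted p = 0.0051 by edgeR). Without PEO1 replicate 2 the adjusted p was 0.0513 at a log2 fold change of -0.90.

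EIF3M, another octamer subunit, had 128 and 138 CPM in ABTr1, 174 and 185 in ABTr2, 162 and 190.5 in ABTr3, 173 and 197 in ABTr4, and 261 and 251 in PEO1. The groups did not overlap, and the log2 fold change was -0.62 (SE 0.16, adjusted p = 0.0344 by edgeR). Leaving out any 1 of the 10 libraries ended the call of EIF3M, with edgeR adjusted p-values of 0.052 to 0.139 and log2 fold changes of -0.65 to -0.59, and with clones as units the adjusted p was 0.0533. Of the EIF3M exon bases, 15.9% are shared with CCDC73 in the table.

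EIF3A, the largest subunit and scaffold, had 271 and 223 CPM in ABTr1, 325 and 133 in ABTr2, 432 and 247 in ABTr3, 331 and 141 in ABTr4, and 538.5 and 520.5 in PEO1. All clone libraries were below PEO1 and spread over a wide range, and the log2 fold change of -1.03 (SE 0.38) had an edgeR adjusted p of 0.101, or 0.00314 at -1.13 with the replicate block. Without ABTr2 replicate 1 the adjusted p of EIF3A was 0.0382 at -1.23. EIF3E and EIF3H, both subunits of the octamer, averaged 470 ± 91.9 and 425 ± 72.5 CPM in the clones (SD, n = 4), against 855 ± 296 and 689 ± 132 CPM in PEO1 (SD, n = 2). The log2 fold change of EIF3E was -0.88 with an edgeR adjusted p of 0.11, or 0.000593 with the replicate block. That of EIF3H was -0.71 with an edgeR adjusted p of 0.0739, or 0.00247 with the replicate block, and 0.0495 at -0.82 without ABTr2 replicate 2. EIF3L had 150 to 205 CPM in the clone libraries and 228 to 309 CPM in PEO1, without overlap, at a log2 fold change of -0.59 (adjusted p = 0.0772 by edgeR, or 0.00804 with the replicate block). EIF3G was at -0.47 and EIF3F at -0.46, and EIF3D at -0.35, EIF3J at -0.33 and EIF3B at -0.27 passed in neither fit.

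**Figure D3:**
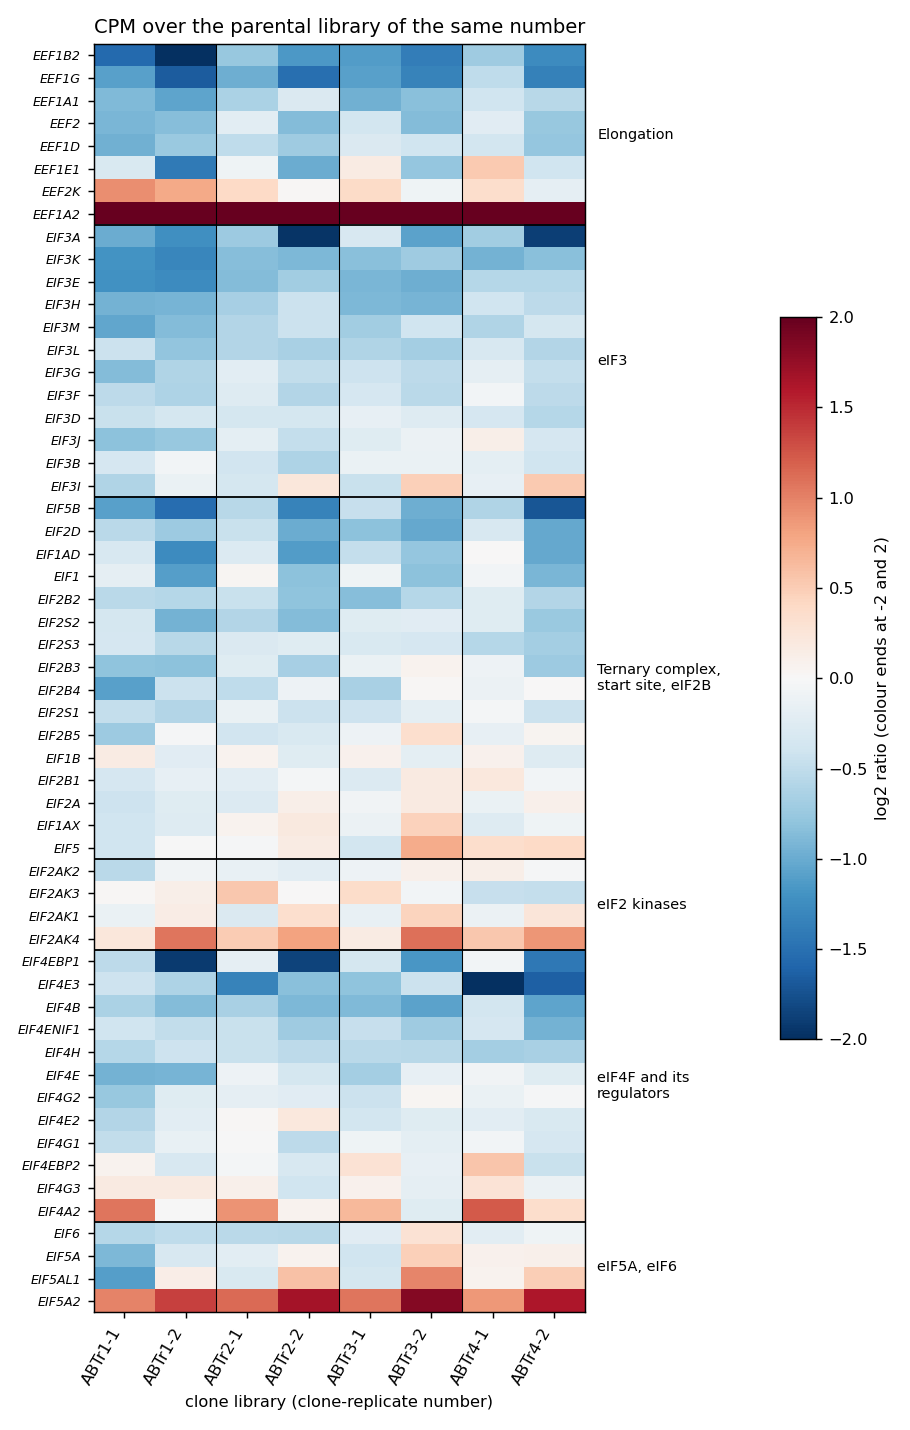
Log2 ratio of CPM in each clone library over the PEO1 library of the same replicate number, for the 56 tested members in rows grouped by role and the 8 clone libraries in columns, with blue for lower and red for higher and the colour ending at -2 and 2. EEF1B2, EEF1G, EIF3A, EIF3K and EIF3E are blue in every column, and EEF1A2, EIF5A2 and EIF2AK4 are red in all 8.

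Set against the parental library of its own number, each clone library had between 39 and 48 of the 56 members below 0. There were 28 members, 50% of those tested, with all 8 clone libraries below the parental library of their number, where 19.2% of all tested genes were. The 3 members above in all 8 were EEF1A2, EIF5A2 and EIF2AK4, where 21% of all genes were. Against both parental libraries, 15 members, or 26.8%, had all 8 clone libraries below, beside 12.5% of all genes, and the same 3 members had all above, or 5.36%, beside 14.5% of all genes.

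The 16 tested members of the ternary complex, start site and eIF2B list had a median log2 fold change of -0.38, and 15 of them were below 0. EIF2D passed without the block, and with the replicate block EIF1, EIF1AD, EIF2S2, EIF2S3, EIF2D, EIF2B2 and EIF5B did, all lower. Of all tested genes 48.7% were below 0, and 8.79% were called lower, or 18.2% with the block. EIF2D, a factor that can place tRNA on the ribosome without eIF2 and helps recycle subunits, had 27.5 and 33.0 CPM in ABTr1, 29.4 and 27.4 in ABTr2, 22.7 and 26.8 in ABTr3, 32.2 and 26.9 in ABTr4, and 40.1 and 54.6 in PEO1. All clone libraries of EIF2D were below both parental ones, at a log2 fold change of -0.75 (SE 0.19, adjusted p = 0.0319 by edgeR). The call ended without PEO1 replicate 2, at an adjusted p of 0.274 and a log2 fold change of -0.51. It also ended without 6 of the clone libraries, with edgeR adjusted p-values of 0.0512 to 0.0739. Those were both libraries of ABTr1, both of ABTr3, and replicate 2 of ABTr2 and of ABTr4.

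EIF5B, the GTPase that joins the large ribosomal subunit, had 179 and 117 CPM in ABTr1, 259 and 132 in ABTr2, 278 and 170 in ABTr3, 252 and 102 in ABTr4, and 381 and 335 in PEO1. Replicate 1 was higher in all groups and the clones lay below PEO1 without overlap. Its log2 fold change was -0.96 (SE 0.36, adjusted p = 0.111 by edgeR, or 0.00175 at -1.05 with the replicate block, and 0.0458 at -1.16 without ABTr4 replicate 1). EIF1AD, an eIF1A domain protein, averaged 55.8 ± 4.79 CPM in the clones (SD, n = 4) and 87.4 ± 16.8 CPM in PEO1 (SD, n = 2), with an edgeR adjusted p of 0.0982 that was 0.023 with the replicate block. EIF2S1, the eIF2α subunit whose phosphorylation slows initiation under stress, averaged 172 ± 16.4 CPM in the clones (SD, n = 4) and 215 ± 27.4 CPM in PEO1 (SD, n = 2) and did not pass in either fit (adjusted p = 0.383 by edgeR). EIF2S2, the eIF2β subunit, averaged 274 ± 42.6 CPM in the clones (SD, n = 4) and 392 ± 52.1 CPM in PEO1 (SD, n = 2), with an edgeR adjusted p of 0.0892 that was 0.0252 with the replicate block. The log2 fold changes of the 5 subunits of eIF2B, the exchange factor that reloads eIF2 with GTP, were -0.56 for EIF2B2, -0.38 for EIF2B3, -0.37 for EIF2B4, -0.20 for EIF2B5 and -0.09 for EIF2B1. EIF1, which guards start codon choice, averaged 780.1 ± 54.0 CPM in the clones (SD, n = 4) and 1150 ± 501 CPM in PEO1 (SD, n = 2), while its homolog EIF1B averaged 55.4 ± 0.950 CPM in the clones (SD, n = 4) and 59.0 ± 19.6 CPM in PEO1 (SD, n = 2). Single libraries of EIF1B had 47.4 to 63.5 CPM in the clones and 45.2 and 72.9 CPM in PEO1. EIF1AX and EIF2A lay at -0.07 and -0.08. EIF5, which stimulates GTP hydrolysis on eIF2, had a log2 fold change of 0.08, the 1 value above 0 in the list.

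The 4 eIF2 kinases did not share this direction, with a median log2 fold change of 0.04 and no call without the block. EIF2AK4, which encodes the amino acid sensor GCN2, had 87.9 and 95.2 CPM in ABTr1, 107 and 79.0 in ABTr2, 84.0 and 97.0 in ABTr3, 109 and 83.2 in ABTr4, and 75.1 and 45.2 in PEO1. Every clone library of EIF2AK4 was above both parental ones, though the lowest clone library was close to the higher parental one. The log2 fold change of EIF2AK4 was 0.62 (SE 0.25, adjusted p = 0.125 by edgeR), or 0.65 (SE 0.20, adjusted p = 0.0292 by edgeR) with the replicate block, and its 4 single clones ranged from 0.59 to 0.67. EIF2AK2, the double-stranded RNA sensor PKR, averaged 92.6 ± 10.8 CPM in the clones (SD, n = 4) and 99.6 ± 18.2 CPM in PEO1 (SD, n = 2). EIF2AK3, the endoplasmic reticulum kinase PERK, averaged 29.4 ± 6.07 CPM in the clones (SD, n = 4) and 28.7 ± 4.03 CPM in PEO1 (SD, n = 2), and its sign against PEO1 depended on the setting. EIF2AK1, the heme-regulated kinase HRI, averaged 258.5 ± 13.0 CPM in the clones (SD, n = 4) and 246 ± 14.2 CPM in PEO1 (SD, n = 2).

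In the eIF4F list 10 of 12 tested members were below 0, with a median log2 fold change of -0.35. EIF4EBP1 passed without the block, and EIF4B, EIF4E3, EIF4H, EIF4EBP1 and EIF4ENIF1 passed with it, all lower. Over all tested genes 48.7% were below 0, and 8.79% passed as lower, or 18.2% with the block. EIF4EBP1, the most studied 4E-binding repressor and a target of mTORC1, had 52.8 and 51.8 CPM in ABTr1, 67.0 and 54.2 in ABTr2, 59.4 and 87.2 in ABTr3, 73.1 and 72.6 in ABTr4, and 75.9 and 195 in PEO1. PEO1 replicate 2 stood far above PEO1 replicate 1, and ABTr3 replicate 2 lay above PEO1 replicate 1 as well. The log2 fold change of EIF4EBP1 was -1.08 (SE 0.30, adjusted p = 0.0418 by edgeR), and without PEO1 replicate 2 it was -0.25 with an adjusted p of 0.623. Leaving out any clone library but ABTr2 replicate 1 also ended its call, with edgeR adjusted p-values of 0.0571 to 0.0828. So did limma-voom, at an adjusted p of 0.0877, and edgeR with clones as units, at 0.0618.

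The cap-binding protein gene EIF4E averaged 90.5 ± 20.9 CPM in the clones (SD, n = 4) and 119 ± 30.7 CPM in PEO1 (SD, n = 2) and did not pass in either fit (adjusted p = 0.332 by edgeR). The 2 scaffold genes EIF4G1 and EIF4G2 also did not pass in either fit. EIF4G1 averaged 1088 ± 78.8 CPM in the clones (SD, n = 4) and 1247 ± 519 CPM in PEO1 (SD, n = 2). Single libraries of EIF4G1 had 610 to 1606 CPM in the clones and 1614 and 880 CPM in PEO1. EIF4G2, the homolog that lacks the eIF4E-binding site, averaged 1410 ± 175 CPM in the clones (SD, n = 4) and 1679 ± 496 CPM in PEO1 (SD, n = 2). EIF4A2, the second eIF4A helicase, had 608 and 868 CPM in ABTr1, 538 and 913 in ABTr2, 454 and 741 in ABTr3, 677 and 1114 in ABTr4, and 289 and 872 in PEO1. The lowest of these 10 values was PEO1 replicate 1, and the log2 fold change of 0.33 (SE 0.44, adjusted p = 0.656 by edgeR) became 1.34 when PEO1 replicate 2 was left out and -0.30 when replicate 1 was.

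EIF4B, the helicase cofactor that S6 kinase phosphorylates, had 380 and 546 CPM in ABTr1, 373 and 533.5 in ABTr2, 319 and 473 in ABTr3, 456 and 481 in ABTr4, and 588 and 997 in PEO1. All clone libraries of EIF4B were below both parental ones, at a log2 fold change of -0.83 (SE 0.27, adjusted p = 0.0674 by edgeR, or 0.00252 with the replicate block, and 0.0402 at -1.21 without PEO1 replicate 1). EIF4E3, an unusual cap-binding homolog, had 23.1 and 25.9 CPM in ABTr1, 12.2 and 22.3 in ABTr2, 17.6 and 29.6 in ABTr3, 5.40 and 12.8 in ABTr4, and 30.9 and 39.9 in PEO1. ABTr4 was the lowest clone, at a log2 fold change of -1.96 (adjusted p = 0.038 by edgeR), and over the clones the change was -1.03 (SE 0.34, adjusted p = 0.076 by edgeR, or 0.00238 with the replicate block). EIF4E3 passed at an edgeR adjusted p of 0.0457 without ABTr2 replicate 2 and 0.0342 without ABTr4 replicate 2. EIF4ENIF1, which carries eIF4E into the nucleus, had 12.1 to 16.5 CPM in the clone libraries and 20.4 to 23.2 CPM in PEO1, without overlap, at a log2 fold change of -0.56 (adjusted p = 0.0815 by edgeR, or 0.0291 with the replicate block). EIF4H, a helicase cofactor like EIF4B, averaged 506 ± 28.6 CPM in the clones (SD, n = 4) and 737 ± 203 CPM in PEO1 (SD, n = 2), with an edgeR adjusted p of 0.226 that was 0.00942 with the replicate block. EIF4E2, EIF4EBP2 and EIF4G3 lay between -0.20 and 0.03 and passed in neither fit.

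EIF5A2 was the second member to rise. It encodes the rarer isoform of eIF5A, the hypusine-bearing factor that helps ribosomes through difficult peptide bonds, and lies on hg19 at chr3:170606204-170626426. EIF5A2 had 53.5 and 40.5 CPM in ABTr1, 58.9 and 49.8 in ABTr2, 56.4 and 56.4 in ABTr3, 48.9 and 48.3 in ABTr4, and 26.8 and 15.8 in PEO1. The clone libraries were close to each other and all above both parental ones, at a log2 fold change of 1.27 (SE 0.25, adjusted p = 0.0122 by edgeR). EIF5A2 passed in each clone by itself, at 1.14 to 1.41, and without PEO1 replicate 2 its adjusted p was 0.0916 at 0.94.

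EIF5A, the main isoform, averaged 480 ± 102 CPM in the clones (SD, n = 4) and 534 ± 233 CPM in PEO1 (SD, n = 2), with an edgeR adjusted p of 0.75. EIF5A2 made up 2.13 to 4.50% of the EIF5A and EIF5A2 reads per kilobase in the clone libraries and 1.24 and 1.38% in PEO1, so the shares did not overlap. The intronless copy EIF5AL1 is 98.9% identical to EIF5A over its coding bases, so reads between those genes are uncertain, while EIF5A2 shares no identical run over 14 bases with EIF5A. EIF6, which keeps the large ribosomal subunit from joining early, averaged 154 ± 29.8 CPM in the clones (SD, n = 4) and 189 ± 54.7 CPM in PEO1 (SD, n = 2), with an edgeR adjusted p of 0.454.

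**Figure D4:**
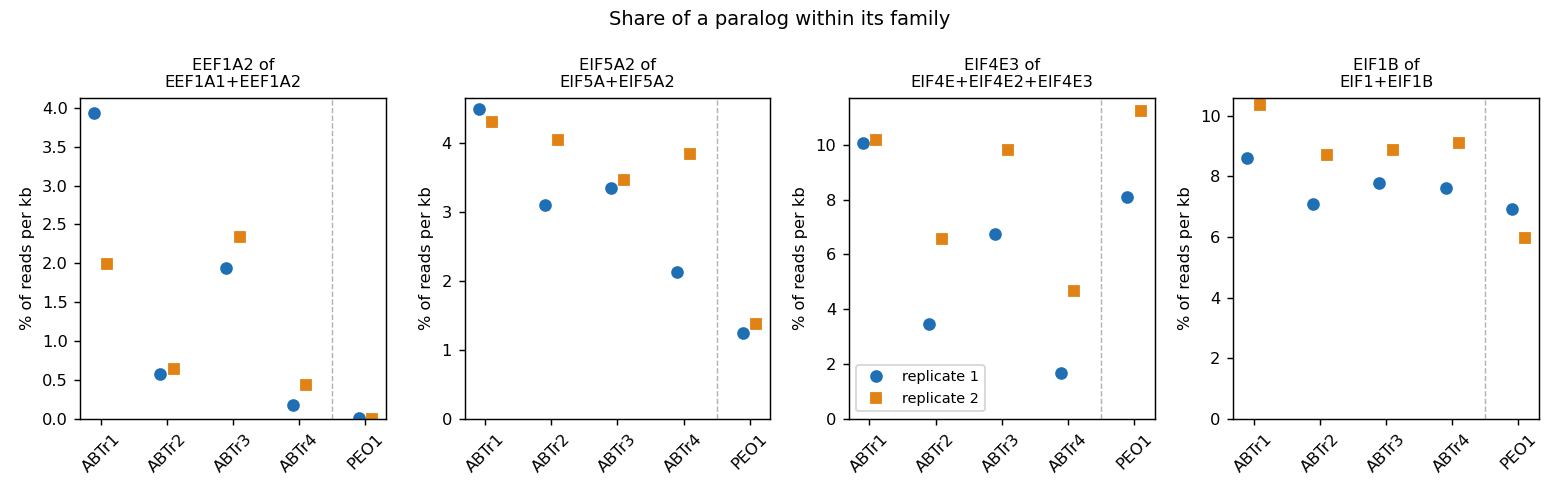
Share of a paralog among the reads per kilobase of its family in every library, clones left of the dashed line and PEO1 right of it, with replicate 1 as circles and replicate 2 as squares. The EIF5A2 share is 2.13 to 4.50% in the clones and at most 1.38% in PEO1, and the EIF4E3 share is lowest in ABTr4.

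Shares in 4 other isoform families were also computed. EIF4E3 made up 1.66 to 10.2% of the reads per kilobase of EIF4E, EIF4E2 and EIF4E3 in the clone libraries and 8.08 and 11.2% in PEO1. EIF1B, a close homolog of EIF1, made up 7.09 to 10.4% of their joint reads per kilobase in the clone libraries and 5.97 and 6.92% in PEO1, without overlap. EIF4EBP1 made up 79.8 to 86.2% of the reads per kilobase of the 3 4E-binding protein genes in the clone libraries and 86.1 and 92.5% in PEO1. EIF4G3 made up 7.13 to 13.7% of the EIF4G1 and EIF4G3 reads per kilobase in the clone libraries and 6.64 and 11.2% in PEO1.

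Of the members, 9 are textbook 5′ TOP mRNAs, EEF1A1, EEF1B2, EEF1D, EEF1G, EEF2, EIF3E, EIF3F, EIF3H and EIF4B. The list was chosen with earlier results of these data known, so the counts below describe it and test nothing. The shares over members given beside them include the 9. All 9 were below 0, where 83.9% of the tested members were. Without the block 2 of them passed as lower, beside 10.7% of the members and 8.79% of all genes. With the replicate block all 9 passed as lower, beside 44.6% of the members and 18.2% of all genes. The median log2 fold change of the 9 was -0.71. EIF3F, which had 140 ± 10.1 CPM in the clones (SD, n = 4) and 192 ± 66.6 CPM in PEO1 (SD, n = 2), was the smallest of these changes at -0.46.

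The annotated starts of members were read to show which carry the element, since the elongation and eIF3 genes that were lower include many 5′ TOP mRNAs. The 30 bases around the start, 15 before it and 15 from it on, come from RefSeq on GRCh38.p14, which is not the build of the counts. There 51 of 64 members had an entry. Those without one included EEF1A2, EIF3A, EIF4EBP1 and the 5′ TOP genes EEF1D, EIF3E and EIF3H. Capitals mark a run of C and T that begins with a C at the start itself and is at least 5 bases long, read on the strand of the gene. The 9 starts with capitals are from members that were low in the clones or, for EIF4A2, not. EIF3D, EIF2A and EIF2S3 also have such a run and are not shown, at log2 fold changes of -0.35, -0.08 and -0.42. Of the 34 tested members without a run, 2 are shown, EEF1G, which was low, and EIF5A2, which was high. The starts shown therefore do not tell how often a run goes with a low value.
EEF1A1, chr6:73521018-73521047, minus strand: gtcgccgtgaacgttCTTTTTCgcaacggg
EEF1B2, chr2:206159880-206159909, plus strand: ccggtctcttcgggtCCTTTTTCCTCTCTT
EEF2, chr19:3985449-3985478, minus strand: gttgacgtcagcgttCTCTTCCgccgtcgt
EIF4B, chr12:53006441-53006470, plus strand: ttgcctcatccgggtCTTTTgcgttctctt
EIF3F, chr11:7987322-7987351, plus strand: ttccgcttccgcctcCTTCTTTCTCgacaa
EIF3K, chr19:38619173-38619202, plus strand: ttccgtttccaccacCTCTTCCTgttcccg
EIF3M, chr11:32583816-32583845, plus strand: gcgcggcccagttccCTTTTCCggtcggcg
EIF2D, chr1:206612451-206612480, minus strand: ggtttccagccgggcCCTTTTCgcggccgg
EIF4A2, chr3:186783562-186783591, plus strand: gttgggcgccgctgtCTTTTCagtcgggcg
EEF1G, chr11:62573877-62573906, minus strand: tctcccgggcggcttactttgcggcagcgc
EIF5A2, chr3:170908623-170908652, minus strand: cccgccccgtctcttggaactgccgcggcc

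Such a run was found at the start of 12 of the 46 tested members with an entry, 26.1%, and at that of 5.14% of the 27305 genes in the RefSeq table. Those 27305 genes were not filtered by expression as the tested members were, so these shares are over unlike sets. The 12 were EIF2D, EIF3F, EIF3M, EIF4B, EEF2, EIF3K, EEF1B2, EIF3D, EIF2A, EIF4A2, EEF1A1 and EIF2S3, with a median log2 fold change of -0.63, 11 of them below 0. The 34 without it had a median of -0.23, with 28 below 0. With the replicate block 9 of the 12 and 8 of the 34 were called lower. EEF1G, a 5′ TOP mRNA, has an A at the annotated start, and the pyrimidine run just after it is shorter than the 5 bases asked for. EEF1B2 has a second annotated start without a run, so whether it counts depends on the annotated position. The search was added after the values had been seen, no test was made, and a match is a description of letters.

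Genes that work with these factors were counted from lists outside the member names. Of 13 helpers of initiation, 1 passed as higher and 1 as lower, or 1 higher and 6 lower with the replicate block. Over all tested genes 7.17% passed as higher and 8.79% as lower, or 16.3 and 18.2% with the block. PABPC1, the poly(A)-binding protein gene and itself a 5′ TOP mRNA, had 981 to 1976 CPM in the clone libraries and 3594 and 4809 CPM in PEO1, a log2 fold change of -1.56 (SE 0.23, adjusted p = 0.00293 by edgeR). PAIP2B, which encodes an inhibitor of poly(A)-binding protein, averaged 12.2 CPM in the clones and 6.22 CPM in PEO1, a log2 fold change of 0.94 (SE 0.25, adjusted p = 0.0371 by edgeR).

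Of 14 genes of mTORC1 and MNK signaling, 3 passed, all lower, or 6 with the replicate block, with a median of -0.41. The share of all tested genes called lower was 8.79%, or 18.2% with the block. RPS6KB1, the S6 kinase gene, had 18.5 to 24.8 CPM in the clone libraries and 57.6 and 46.8 CPM in PEO1, a log2 fold change of -1.23 (SE 0.19, adjusted p = 0.00391 by edgeR). AKT1S1, which encodes the mTORC1 inhibitor PRAS40, had 33.2 to 46.9 CPM in the clone libraries and 71.7 and 67.4 CPM in PEO1, at -0.78 (adjusted p = 0.021 by edgeR). DDIT4, a stress-induced mTORC1 inhibitor gene, had 11.4 to 215 CPM in the clone libraries and 160 and 578 CPM in PEO1, at -2.44 (adjusted p = 0.0229 by edgeR). The replicate block added MKNK2, PDCD4 and LARP1, all lower, and MTOR itself, at -0.27, did not pass in either fit. The 3 that passed without the block are the genes of 1 kinase that acts for mTORC1 and 2 inhibitors of it. The activity of mTORC1 was not measured, and its part in the levels of the members was not tested.

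The factors of mitochondrial translation had 2 of 6 lower, TSFM at -0.76 and GFM2 at -0.81 (adjusted p = 0.03 and 0.0251 by edgeR), and 3 of 6 with the replicate block. The hypusine and diphthamide enzymes, which modify eIF5A and eEF2, had 0 of 10 called, 1 with the replicate block (DPH5, lower), and a median of -0.003. DHPS, the first hypusine enzyme, was at 54.1 ± 2.82 CPM in the clones (SD, n = 4) and 52.4 ± 7.48 CPM in PEO1 (SD, n = 2). Single libraries of DHPS had 36.0 to 75.4 CPM in the clones and 47.1 and 57.7 CPM in PEO1. The eIF2 phosphatase list had 0 of 6 called, or 2 lower with the replicate block, and the selenocysteine list 0 of 5 in both fits with a median of 0.40. Beside these 4 lists, 8.79% of all tested genes were called lower, or 18.2% with the block.

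Clone by clone, EEF1A2 and EIF5A2 were the 2 members called higher in each comparison with PEO1, where 5.48% of all genes were in ABTr1, 3.31% in ABTr2, 3.48% in ABTr3 and 4.46% in ABTr4. In ABTr1, 4 members were called lower, EEF1B2, EEF1G, EIF3K and EIF3M, beside 4.29% of all genes. In ABTr2, EIF3K was, beside 2.81% of all genes, and in ABTr3, EEF1B2 was, beside 3.89%. In ABTr4, EIF3K and EIF4E3 were, beside 5.25%. With the replicate block 23 members, or 41.1%, were lower in ABTr1 beside 14.5% of all genes, 14, or 25%, in ABTr2 beside 10.8%, 12, or 21.4%, in ABTr3 beside 11.6%, and 10, or 17.9%, in ABTr4 beside 13.9%. As higher with the block, 3 members, or 5.36%, passed in ABTr1 beside 15.5% of all genes. In each of ABTr2, ABTr3 and ABTr4, 2 members, or 3.57%, did, beside 11.3, 11 and 13.1% of all genes. The median log2 fold change of the members was -0.55 in ABTr1, -0.36 in ABTr2, -0.31 in ABTr3 and -0.28 in ABTr4, while that of all genes was 0.01, 0.02, 0.06 and 0.04. These counts rest on few libraries: without PEO1 replicate 2 the members called numbered 2 in ABTr1, 0 in ABTr2, 1 in ABTr3 and 1 in ABTr4, and without either library of ABTr1 there was 1 in each comparison. Without PEO1 replicate 1 they numbered 8, 5, 6 and 7 in the same order of clones.

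No member passed in a test of any difference among the 4 clones by edgeR without the block, by DESeq2 or by limma-voom, where 2, 3 and 3 members had an unadjusted p under 0.05. By edgeR 0.00606% of all genes passed without the block and 0.843% with it, and with it EEF1A2 did. In 224 clone and member pairs, where 1 clone was set against the other 3 averaged, none passed without the block beside 0.00303% of all pairs, and 10 had an unadjusted p under 0.05. With the replicate block 4 pairs passed beside 0.929% of all pairs.

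Members also differed by replicate number. Replicate 2 was above replicate 1 in all 5 groups for 15 of 56 members, or 26.8%, beside 19.3% of all tested genes, and below it in all 5 for 20 members, or 35.7%, beside 18.2%. EEF1A1 differed most upward, by a mean of 1.07 on the log2 scale, and by 1.04 in PEO1 and 0.87 to 1.37 in the clones. EIF2B3 and EIF4G1 differed most downward, by means of -1.01 and -0.99. Across the 56 members the mean difference had a Pearson correlation of -0.36 with the log10 of gene length, beside -0.08 across all tested genes. Its Spearman correlation with gene length was -0.38, beside -0.15 across all tested genes. These are correlations across genes, which share their libraries and are not independent replicates.

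**Figure D5:**
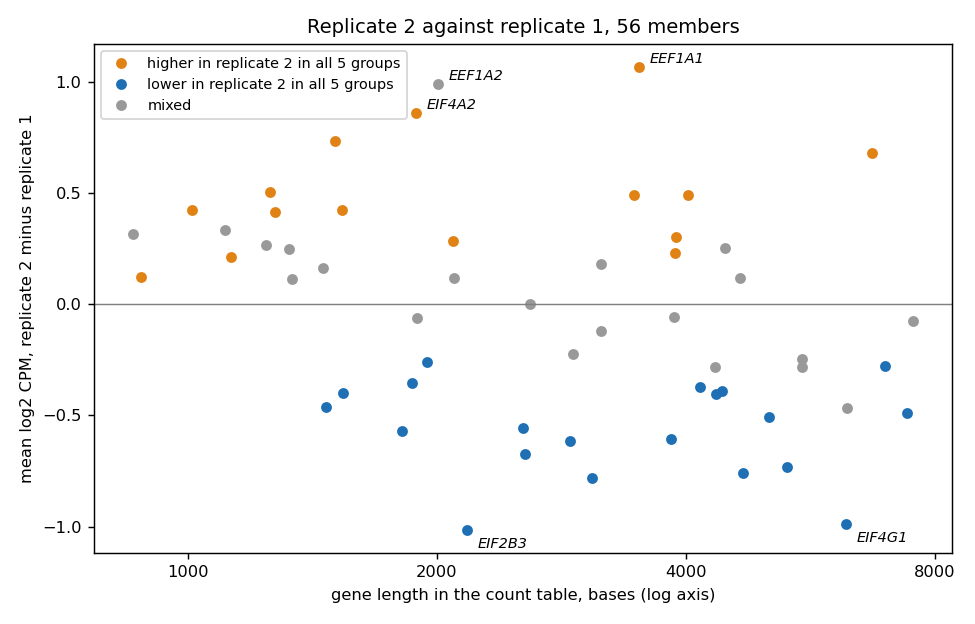
Mean over the 5 groups of the log2 CPM of replicate 2 minus replicate 1 (vertical) against gene length in the count table on a log axis (horizontal) for the 56 tested members, coloured by whether the 5 groups share a direction. EEF1A1 lies highest at 1.07 and EIF2B3 lowest at -1.01.

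The 8 untested members had few or no reads. EIF4A1, which encodes the main eIF4A helicase, was listed at 0 in every library, and 100% of its exon bases are also listed under SENP3-EIF4A1, a readthrough row with 24 reads over all libraries. The value of 0 therefore says nothing of the level of EIF4A1. EIF3CL shares 99.9% of its exon bases with EIF3C, and EIF4EBP3 shares 74.7% with ANKHD1-EIF4EBP3. EIF4EBP3 had 14 reads over the 8 clone libraries and 5 over PEO1, EIF4E1B, an oocyte form of eIF4E, had 4 and 0, and the pseudogenes EEF1DP3 and EIF3IP1 had 76 and 18 and 2 and 2. EIF1AY was also under the filter. Exon bases were not shared with any other row for 48 of the 64 members.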

How the data were processed

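RNA-seq of polyadenylated RNA gave 10 libraries, 2 each of ABTr1 to ABTr4 and PEO1. The deposited table holds raw counts per gene made by the authors. The aligner TopHat2 2.0.14, the counter featureCounts 1.4.6 of Subread and the build hg19 are named in the submitters' processing notes. The kit is unstranded, and settings for strand and multiple matches are not given in the sources used here, so overlapping and near-identical genes are uncertain. The labels speak of 15 samples in 3 experiments, of which 10 libraries were analysed here. They number the clones differently in the descriptions, so library names were used. Whether the libraries of a group came from separate cultures is not stated. The p-values reflect only how these libraries vary, which may be technical.

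Genes were filtered with filterByExpr of edgeR 4.0.16 (R 4.3.3), scaled by TMM, and tested by quasi-likelihood with 1 mean for each group, which leaves 5 degrees of freedom. The p-values of all 16490 tested genes were adjusted by Benjamini and Hochberg's method. Changes are clones over PEO1. CPM means over clones weight clones equally. Same-numbered libraries deviated together in all 10 group pairs (correlations of 0.28 to 0.731, above 0.1), so a replicate block (4 degrees of freedom) was run beside each fit. DESeq2 1.42.0, limma-voom 3.58.1, RLE factors, an unfiltered table, fits on the compared groups alone, clones as units and the omission of 1 library at a time were alternatives. The fit was also run on simulated counts that held no replicate-number effect, so that run cannot show how the fit handles the shared deviations of same-numbered libraries.

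The members and lists were chosen with earlier results of these data known. Members were named if listed by rule, or called in the mean comparison, in at least 2 clones, with the block at 1.5-fold or more, or among clones. From each related list the called genes were named. Start sequences are RefSeq's, and coding identities came from GENCODE transcripts aligned with Biopython. Figures were drawn with matplotlib. Some results are not reported here.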

Additional observations from a re-analysis of the deposited data

Results flagged for a closer look

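Differences between clones were met for 4 members, all in fits with the replicate block, and none passed without it. EEF1A2 differed among the 4 clones with an edgeR adjusted p of 0.0468 (0.895 without the block), and ABTr1 exceeded the mean of the other 3 by 1.78 on the log2 scale (SE 0.34, adjusted p = 0.0356 by edgeR). High EEF1A2 was not particular to ABTr1, as ABTr3 overlapped it, with 71.3 and 194.5 CPM beside 156 and 141.5 CPM. ABTr2 had 26.2 and 75.8 CPM and ABTr4 had 9.10 and 43.3 CPM. EEF1B2 was lower in ABTr1 than in the mean of the other 3, at a log2 difference of -0.88 (SE 0.18, adjusted p = 0.0393 by edgeR). EEF2K, the kinase of eEF2, was higher in ABTr1, with 104 and 81.8 CPM against 42.5 to 72.4 CPM in the other clone libraries, a log2 difference of 0.69 (SE 0.15, adjusted p = 0.0459 by edgeR). EIF4E3 was lower in ABTr4, at a log2 difference of -1.31 (SE 0.24, adjusted p = 0.0498 by edgeR). All 4 pairs lie close to the threshold among the 224 compared.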

How the results depend on the processing

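In the mean comparison 29 named members were followed over 16 other settings, which gave 464 values. Of these 390 kept direction and call, 32 lost the call, 29 gained it and 13 changed sign. The count of members called was 8, against 16 with DESeq2 and 28 with the replicate block, and 1 to 10 with a library left out. In ABTr1 it was 6, against 14 with DESeq2, 26 with the replicate block, 2 with only the compared groups, and 1 to 8 with a library left out. In ABTr2 it was 3, against 6, 16, 1, and 0 to 5 in the same order. In ABTr3 it was 3, against 8, 14, 1, and 1 to 6. In ABTr4 it was 4, against 12 with the replicate block, 1 with only the compared groups, and 1 to 7 with a library left out. Among clones the replicate block gave 1 call, and 4 in the pairs. EIF2AK3 (0.01) turned to -0.007 with DESeq2, -0.008 with RLE factors and -0.028 with no filter. With a library left out, the sign turned within -0.54 to 0.04 for EIF4G2, -0.57 to 0.32 for EIF5A, -0.29 to 0.05 for EIF2AK2, -0.17 to 0.16 for EIF2AK3, -0.57 to 0.27 for EIF4G1 and -0.30 to 1.34 for EIF4A2. The mean EEF1A2 share over clones was 0.868% on raw reads, without gene length. The cause of these shifts was not tested. Adding pseudogene reads to EEF1A1 was not run, as the table lists no such row. The precision is limited by 2 parental libraries, which all comparisons with PEO1 share, and that of EEF1A2 in PEO1 by 11 reads.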
